A study of Mus musculus with 14 samples.

Results

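The 33 genes described here drive the cell division cycle, from the licensing and copying of DNA in S phase to the separation of chromosomes in mitosis. They were chosen by symbol, and every probe of the bead array with one of those symbols was read. Of the 33 genes, 31 have a probe, and 29 were above background and entered the tests, out of 11394 genes tested in all. The members comprise 15 S phase genes, all of them tested, 15 mitosis genes, of which 11 were tested, and the 3 D cyclins, all tested. Mki67 and Ccnb1 have no probe under their symbol, and the 1 probe of Ccnb2 and the 2 probes of Bub1 were above background on 0 of 14 arrays.

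Gene expression was measured on 14 Illumina bead arrays in embryonic mouse heads collected at E8.5, with 5 to 7 somites, on a mixed C57Bl/6, 129 and BALB/c background. CM-CKO heads (n = 4) carried a floxed and a deleted allele of Twist1, which encodes a bHLH transcription factor of head mesenchyme, together with Cre at the Mesp1 locus. CM-Het heads (n = 3) carried a floxed and a wild-type Twist1 allele and Mesp1-Cre, Het heads (n = 3) a floxed and a deleted allele without Cre, and Control heads (n = 4) a floxed and a wild-type allele without Cre. All 4 genotypes therefore carry a floxed Twist1 allele. Mesp1-Cre acts in early mesoderm, whereas the heads also hold neural tube, neural crest, ectoderm and endoderm, so every value is a mixture of cell types. The labels do not tell if the arrays of a genotype come from different embryos, litters or pools of embryos, and the p-values therefore cover the spread among these arrays, which may be technical.

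As background, cells commit to division when D cyclins and cyclin E activate their kinases and release E2F factors, which turn on replication genes. Cdc6 then loads the MCM helicase onto origins, Cdc45 activates it, and PCNA clamps the polymerases onto DNA while ribonucleotide reductase and thymidylate synthase supply nucleotides. Cyclin A and B with Cdk1, the Plk1 and Aurora kinases, and the spindle checkpoint then carry the cell through mitosis, with Foxm1 as an activator of many mitotic genes. At this stage the neural plate and head mesenchyme both divide rapidly, and Twist1 is known for its part in the growth and survival of the head mesenchyme.

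Probes read transcript levels, while much of the coordination among these genes is known to run through short promoter elements, the CCAAT box, the CHR element of mitotic genes and the E2F site of S phase genes. Promoters of 26 of the 33 members are in the RefSeq table used (GRCm38.p6), as 28 windows of 250 bases before the annotated start. Shown here are the windows of Mcm7, the 1 member called in any comparison below, of Pcna, a member with an adjusted p near the threshold, and of Plk1, the member that varied most between arrays. Capitals mark letters of the motifs searched on both strands, which are CCAAT, then TTTGAA or else TTCGAA for the CHR, and for E2F any of TTCCCGC or else TTGGCGC or else TTCGCGC or else TTGCCGC. None of the motifs overlap one another in these windows, and each sequence runs 5′ to 3′ on the gene's strand.
Mcm7, upstream start, chr5:138171884-138172133, minus strand: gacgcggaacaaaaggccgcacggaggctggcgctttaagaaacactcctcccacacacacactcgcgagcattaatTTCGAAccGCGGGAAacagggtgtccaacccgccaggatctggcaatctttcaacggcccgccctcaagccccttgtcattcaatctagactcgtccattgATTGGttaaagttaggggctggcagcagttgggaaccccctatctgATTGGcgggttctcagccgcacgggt
Mcm7, downstream start, chr5:138171267-138171516, minus strand: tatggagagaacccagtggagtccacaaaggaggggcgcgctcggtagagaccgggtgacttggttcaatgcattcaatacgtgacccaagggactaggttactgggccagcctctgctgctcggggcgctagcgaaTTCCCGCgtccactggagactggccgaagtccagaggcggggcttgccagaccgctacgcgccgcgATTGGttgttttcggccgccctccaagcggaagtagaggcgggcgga
Pcna, chr2:132253181-132253430, minus strand: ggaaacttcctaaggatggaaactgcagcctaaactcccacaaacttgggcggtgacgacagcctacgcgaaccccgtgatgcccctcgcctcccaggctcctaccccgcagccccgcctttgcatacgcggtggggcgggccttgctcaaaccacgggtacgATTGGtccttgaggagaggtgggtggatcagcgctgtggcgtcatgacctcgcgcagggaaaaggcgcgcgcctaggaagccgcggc
Plk1, chr7:122159185-122159434, plus strand: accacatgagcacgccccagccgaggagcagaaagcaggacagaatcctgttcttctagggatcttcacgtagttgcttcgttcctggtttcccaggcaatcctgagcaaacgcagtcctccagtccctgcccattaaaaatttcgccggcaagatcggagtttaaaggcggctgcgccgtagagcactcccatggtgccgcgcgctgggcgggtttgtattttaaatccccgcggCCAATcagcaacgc

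Both Mcm7 windows held the E2F letters together with CCAAT, and the upstream one also held the CHR letters. The Pcna and Plk1 windows held CCAAT alone. CCAAT was in 11 of the 12 windows of mitosis genes (91.7%) and in 10 of the 14 windows of S phase genes (71.4%), against 33.8% of all 32851 promoter windows of that length. The CHR letters were in 58.3% of the mitosis windows and 21.4% of the S phase windows, against 17.1% of all windows. The E2F letters were in 25% of the mitosis windows and 50% of the S phase windows, against 7.89% of all. These matches describe the letters in the windows and carry no measurement of binding.

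The arrays differed in ways that touch the values below. Per the array descriptions, beadchip 1 carried all CM-Het and Het arrays, beadchip 2 carried CM-CKO 1, CM-CKO 2 and all Control arrays, and beadchip 3 carried only CM-CKO 3 and CM-CKO 4. No Xist probe was above background on CM-CKO 3, CM-CKO 4 and Het 3, while all 4 were on each of the other arrays. Median intensity ran from 92.3 to 116, and 40.3% to 43.0% of probes were above background on an array. Twist1 followed the labels, with a log2 signal of 7.96, 7.68, 7.72 and 7.65 on the CM-CKO arrays, against 9.55, 9.17, 9.13 and 9.41 on the Control arrays (log2 difference -1.56, SE 0.10, limma adjusted p = 1.28e-07). Signals are log2 values after background correction and quantile normalization, each gene is read by its brightest probe above background, and a gene was called at a limma adjusted p under 0.05 over all genes tested.

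As a group the cell division genes had a median log2 difference near 0 between every pair of genotypes. In CM-CKO against Control heads, 0 of 29 members were called, against 0.702% of all genes tested. At so low a share few or none of 29 genes would be called, so this count is no result about the members. Their log2 differences had a median of 0.01 and ran from -0.17 to 0.77, with 16 higher and 13 lower, while the median over all genes was 0.00. At an unadjusted p under 0.05 there were 5 members (17.2%), against 11.2% of all genes. The 95% interval of the difference lay within 1.5-fold either way, a log2 value of 0.58, for 26 of 29 members (89.7%). That share was near the 88.5% of all genes. The members with an interval reaching beyond 1.5-fold were Pcna, Ccne2 and Plk1, described below.

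The other comparisons between genotypes gave medians between -0.04 and 0.04, farther from 0 than that of CM-CKO against Control in all but Het against Control. CM-CKO against Het called 0 of 29 members (0.219% of all genes) with a median of -0.02. It had 4 members (13.8%) at an unadjusted p under 0.05, against 7.99% of all genes. CM-CKO against CM-Het called 0 (0.211% of all genes), with a median of 0.04. It had 4 members (13.8%) at an unadjusted p under 0.05, against 10.6% of all genes. CM-Het against Control called 0 (0.412% of all genes), with a median of -0.04. It had 4 members (13.8%) at an unadjusted p under 0.05, against 15.8% of all genes. In these 3 comparisons the interval lay within 1.5-fold for 27, 26 and 26 of the 29 members. Those shares were 93.1%, 89.7% and 89.7%, against 86.8%, 85.1% and 81.9% of all genes.
In Het against Control limma called 0 members (0% of all genes), with a median of -0.01. There 5 members (17.2%) had an unadjusted p under 0.05, against 12.4% of all genes. CM-Het against Het called 0 (0% of all genes), with a median of -0.04. It had 2 members (6.9%) at an unadjusted p under 0.05, against 3.96% of all genes. The interval lay within 1.5-fold for 25 of 29 members (86.2%) in Het against Control, against 84% of all genes. In CM-Het against Het it did so for 25 of 29 (86.2%), against 87% of all genes. A moderated F test for any difference among the 4 genotypes called 0 of 29 members (0.799% of all genes), with 6 at an unadjusted p under 0.05 (20.7%), against 13.7% of all genes. Comparisons with the same genotype share its arrays, so the values above are given side by side and are not separate evidence.

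The genotypes also allow an average effect of Cre (the mean of CM-CKO minus Het and CM-Het minus Control), an average effect of the deleted allele (the mean of CM-CKO minus CM-Het and Het minus Control) and their interaction. The Cre average called 0 members (0.263% of all genes) with a median of -0.03, and the deleted allele average called 0 (0.0878% of all genes) with a median of 0.03. Each of them had 2 members (6.9%) at an unadjusted p under 0.05, against 7.24% of all genes. The interval lay within 1.5-fold for 28 of 29 members (96.6%) in each, against 96.9% (Cre) and 97% (deleted allele) of all genes. The interaction called 1 member, Mcm7, against 1.00% of all genes, with a median over the members of 0.07. It had 7 members (24.1%) at an unadjusted p under 0.05, against 15.8% of all genes. Its interval lay within 1.5-fold for 21 of 29 members (72.4%), against 54.8% of all genes. The interaction sets CM-CKO and Control arrays against CM-Het and Het arrays, which is also the division between beadchips 2 and 3 and beadchip 1, so the genotype and the beadchip cannot be told apart in it.

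**Figure D1:**
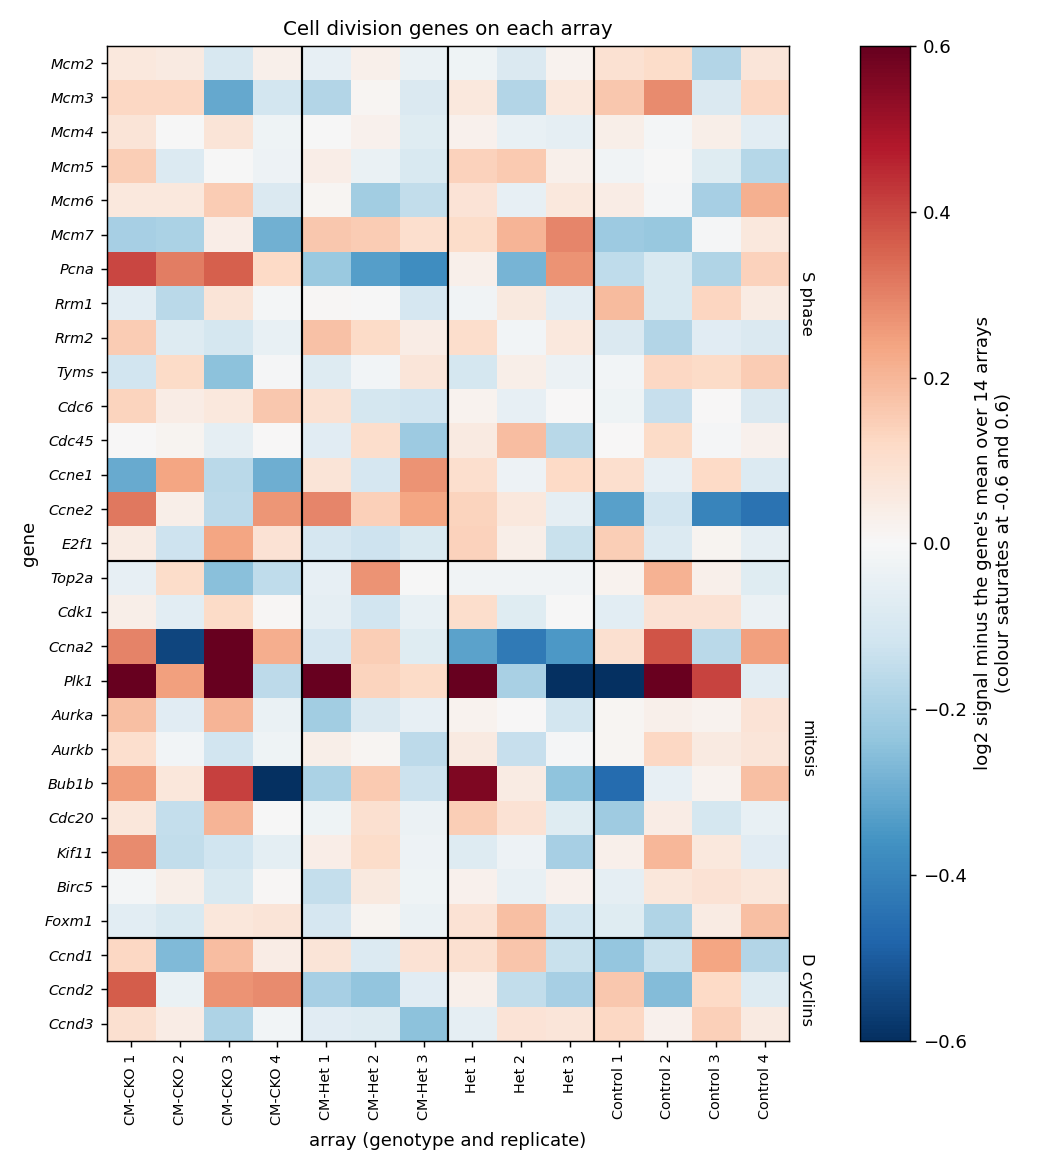
Log2 signal of the 29 tested members (down, by role) on each of the 14 arrays (across, by genotype), as the difference from the gene's mean over the arrays, red above and blue below, with colours saturating at 0.6. No genotype forms a red or blue block across the members. Strong colours stand in Plk1, Bub1b, Ccna2, Pcna and Ccne2.

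On the level of whole arrays the members moved very little. The median over the 29 members of the deviation from each gene's mean ran from -0.01 to 0.10 on the CM-CKO arrays, from -0.04 to 0.01 on the CM-Het arrays, from -0.04 to 0.05 on the Het arrays and from 0.00 to 0.03 on the Control arrays. For the S phase genes alone it ran from -0.01 to 0.07 in CM-CKO, from -0.09 to 0.01 in CM-Het, from -0.02 to 0.07 in Het and from -0.05 to 0.03 in Control. For the mitosis genes it ran from -0.06 to 0.12 in CM-CKO, from -0.06 to 0.09 in CM-Het, from -0.11 to 0.05 in Het and from -0.06 to 0.08 in Control. The genotypes overlapped in all these lists. For the 3 D cyclins it ran from -0.04 to 0.18 in CM-CKO and from -0.08 to -0.06 in CM-Het, which did not overlap. It ran from -0.14 to 0.08 in Het and from -0.13 to 0.15 in Control.

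Most of the marker lists of tissues in or near the head varied more between the same arrays than the members did. The median deviation of 9 head mesenchyme markers, Twist1 among them, ran from -0.65 to -0.28 in CM-CKO and from -0.02 to 0.14 in CM-Het. It ran from -0.11 to 0.11 in Het and from 0.33 to 0.72 in Control, with no overlap between CM-CKO and Control. Of the 9 markers 4 were called lower in CM-CKO than in Control, against 0.702% of all genes called. They were Twist1, which is the targeted gene itself, and Pdgfra, Alx4 and Snai2. The median of 8 endothelium markers ran from -0.23 to -0.14 in CM-CKO, from -0.14 to 0.01 in CM-Het, from 0.00 to 0.11 in Het and from 0.05 to 0.33 in Control, again with no overlap between CM-CKO and Control, and 7 of the 8 were lower in CM-CKO, of which Cldn5 was called (difference -0.79, adjusted p = 0.0462). All 9 tested heart muscle markers were read on every genotype, with a median deviation between -1.09 and 1.17 in CM-CKO, between -0.75 and -0.39 in CM-Het, between -0.92 and 0.52 in Het and between -0.63 and 2.09 in Control. The median of 8 tested neural tube markers ran from -0.06 to 0.11 in CM-CKO and from -0.28 to 0.17 in Control, with Pax6 not above background. Of 7 neural crest markers 4 were tested, with medians from -0.36 to 0.46 in CM-CKO and from -0.32 to 0.43 in Control. CM-CKO 1, the array with the highest median of the members (0.10), had the highest median of 8 primitive erythroid markers (2.37), against -0.82 to 0.60 on the other 13 arrays. The part of these tissues in the members' values was not tested.

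**Figure D2:**
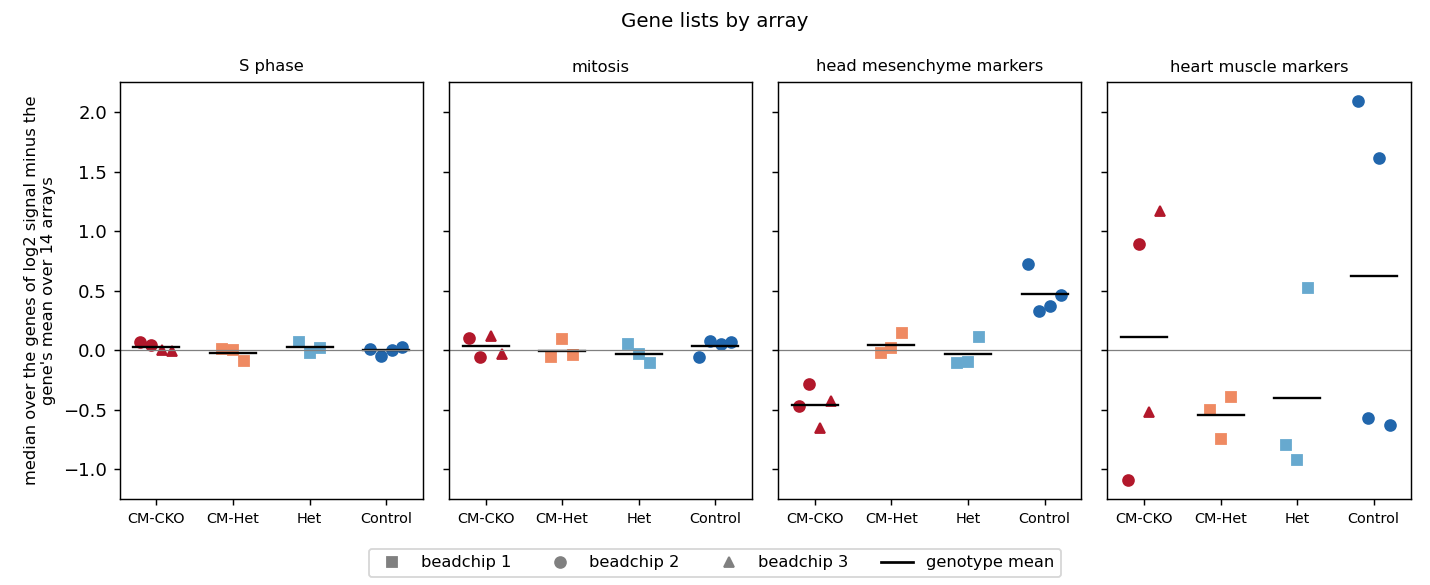
Median over the genes of a list of the log2 signal minus the gene's mean over 14 arrays (vertical axis), by genotype, with 1 point for each array, shaped by beadchip, and a bar at the genotype mean. S phase and mitosis genes stay between -0.11 and 0.12 on all arrays, while head mesenchyme markers run from -0.65 on a CM-CKO array to 0.72 on a Control array and heart muscle markers from -1.09 to 2.09.

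Among the S phase genes, Mcm7, a subunit of the replicative helicase, was the member called in the interaction. Its log2 signal was 10.84, 10.85, 11.08 and 10.75 on the CM-CKO arrays, 11.20, 11.19 and 11.14 on the CM-Het arrays, 11.15, 11.24 and 11.33 on the Het arrays and 10.82, 10.81, 11.03 and 11.10 on the Control arrays. All 6 CM-Het and Het arrays lay above all 8 CM-CKO and Control arrays, while CM-CKO and Control overlapped. The interaction was -0.59 (SE 0.12, 95% interval -0.84 to -0.34, limma adjusted p = 0.0292).
CM-CKO and Control differed by -0.06 (SE 0.08, interval -0.22 to 0.10). CM-CKO was below Het by a log2 difference of -0.36 (adjusted p = 0.116) and below CM-Het by -0.30 (adjusted p = 0.199), neither called. Mcm7 was the 1 member of 29 whose beadchip 1 arrays did not overlap the arrays of beadchips 2 and 3, against 0.799% of all genes. This is the same split of the arrays as in the interaction, so it is no separate evidence. The CM-CKO means were 10.85 on beadchip 2 and 10.92 on beadchip 3. A second, dimmer Mcm7 probe gave an interaction of -0.44 (SE 0.23, adjusted p = 0.36), with Control 1 at 8.39 and the other 13 arrays between 9.19 and 9.52. The call was lost when any of 7 arrays was left out (highest adjusted p 0.0705, without CM-Het 1).

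Pcna, the sliding clamp of the replication polymerases, had a log2 signal of 8.23, 8.14, 8.19 and 7.95 on the CM-CKO arrays, 7.61, 7.50 and 7.46 on the CM-Het arrays, 7.86, 7.55 and 8.10 on the Het arrays and 7.68, 7.74, 7.65 and 7.97 on the Control arrays. The first 3 CM-CKO arrays stood above every array of the other genotypes, and the remaining one, CM-CKO 4, overlapped Het and Control but not CM-Het. The CM-CKO minus CM-Het difference was 0.60 (SE 0.12, interval 0.34 to 0.86, 1.52-fold) and missed the threshold (adjusted p = 0.0506), with the genotypes on different beadchips.
It was called with limma fitted to the arrays of these genotypes alone (adjusted p = 0.0373) and without Het 2 or without Het 3, and its adjusted p reached 0.269 without CM-Het 3. Against Control the difference was 0.36 (interval 0.12 to 0.61, adjusted p = 0.202), and CM-CKO 1 and 2, which share beadchip 2 with Control, averaged 8.18, against 7.76 on the Control arrays. In whole heads, more cells in S phase and more RNA in each cell cannot be told apart.

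Ccne2, a cyclin E that drives entry into S phase, had the largest difference of the S phase members from Control. Its log2 signal was 8.01, 7.73, 7.54 and 7.96 on the CM-CKO arrays, 7.99, 7.84 and 7.93 on the CM-Het arrays, 7.83, 7.76 and 7.64 on the Het arrays and 7.37, 7.58, 7.30 and 7.25 on the Control arrays. CM-Het and Het lay above all Control arrays, and CM-CKO did so except for CM-CKO 3, which lay below Control 2. The difference from Control was 0.44 in CM-CKO (SE 0.11, interval 0.20 to 0.67, adjusted p = 0.0966), 0.55 in CM-Het (SE 0.12, interval 0.29 to 0.80, adjusted p = 0.0529) and 0.37 in Het (SE 0.12, interval 0.12 to 0.62, adjusted p = 0.244).
None of these was called, and all 3 rest on the same Control arrays. Leaving out 1 array at a time, the CM-CKO difference ran from 0.37 to 0.53, with an adjusted p of 0.0351 without CM-CKO 3 and 0.237 without CM-CKO 4. In the Ccne2 differences of CM-Het and Het from Control, genotype and beadchip cannot be told apart. The related Ccne1 ran from 8.96 to 9.50 in CM-CKO and from 9.18 to 9.38 in Control, with a difference of -0.15 (SE 0.11).

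Mcm3, another helicase subunit, was included for its difference from Control among the S phase members. Its signal was 9.96, 9.96, 9.53 and 9.73 on the CM-CKO arrays, 9.66, 9.85 and 9.75 on the CM-Het arrays, 9.90, 9.66 and 9.90 on the Het arrays and 10.00, 10.12, 9.75 and 9.96 on the Control arrays. All genotypes overlapped, and CM-CKO minus Control was -0.17 (SE 0.10, interval -0.38 to 0.04).

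The 11 remaining S phase genes, Mcm2, Mcm4, Mcm5 and Mcm6 of the helicase, the ribonucleotide reductase subunits Rrm1 and Rrm2, Tyms, Cdc6, Cdc45, Ccne1 and E2f1, spanned differences of CM-CKO from Control between -0.16 (Tyms) and 0.16 (Cdc6). Their highest and lowest genotype means lay between 0.05 (Mcm4) and 0.22 (Rrm2) apart. Cdc6, singled out after its values were seen, was the 1 member whose CM-CKO and Control arrays did not overlap, against 5.44% of all genes. It had 9.96, 9.87, 9.89 and 9.99 on the CM-CKO arrays, against 9.80, 9.69, 9.83 and 9.74 on the Control arrays (difference 0.16, SE 0.06, adjusted p = 0.341).

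**Figure D3:**
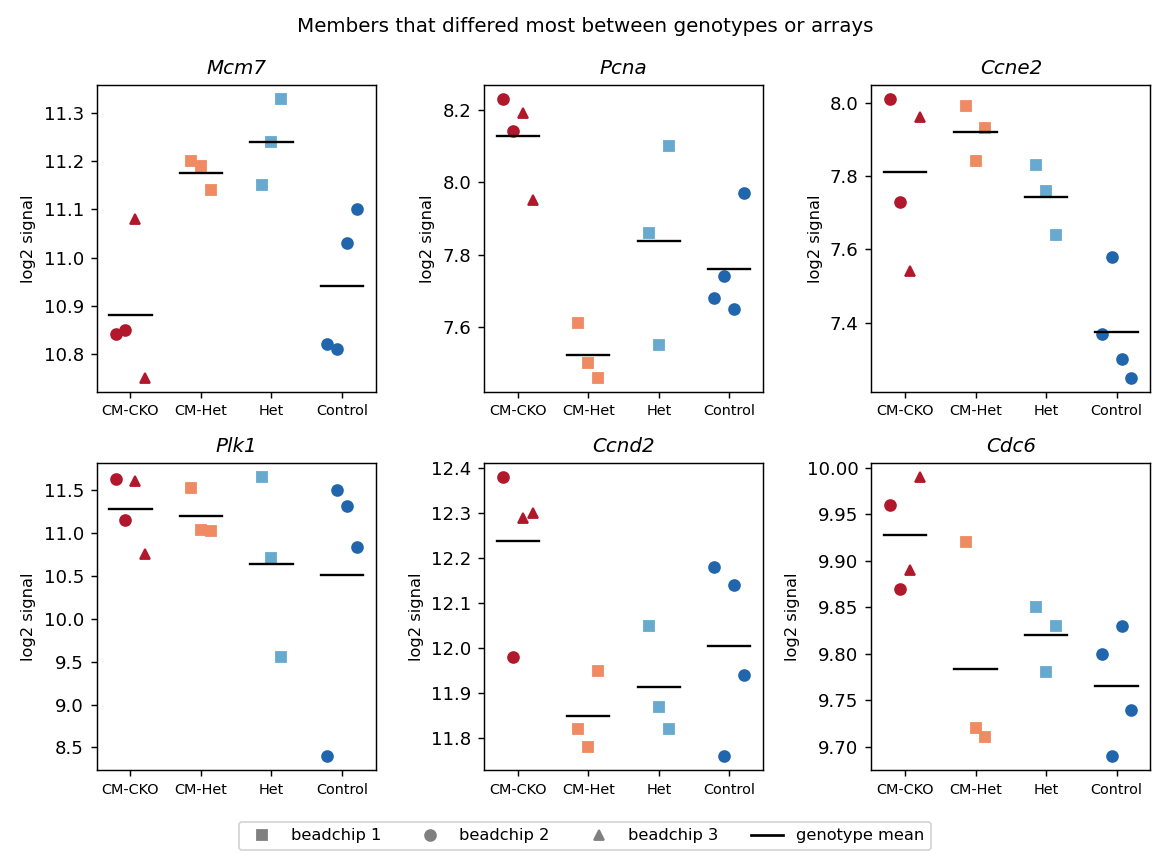
Log2 signal (vertical axes, each with its own range) of 6 members by genotype, with 1 point for each array, shaped by beadchip, and a bar at the genotype mean. Mcm7 lies higher on the beadchip 1 arrays (11.14 to 11.33) than on the others (10.75 to 11.10), Pcna is highest in CM-CKO, Ccne2 lowest in Control, and Plk1 has low points on Control 1 (8.40) and Het 3 (9.55).

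The mitosis genes gave no call in any of the comparisons, the interaction included, and in CM-CKO against Control 0 of the 11 had an unadjusted p under 0.05, against 11.2% of all genes. Among the S phase genes 4 of 15 (26.7%) did, 3 higher and 1 lower, and among the D cyclins 1 of 3, Ccnd2. The median difference of the 11 mitosis genes there was 0.00, with 6 higher and 5 lower. Top2a, the topoisomerase that untangles replicated chromosomes, had the lowest difference of the mitosis genes. It read 11.30, 11.46, 11.10 and 11.20 on the CM-CKO arrays, 11.30, 11.62 and 11.35 on the CM-Het arrays, 11.33 on each of the 3 Het arrays and 11.37, 11.56, 11.38 and 11.28 on the Control arrays. The genotypes overlapped, and CM-CKO minus Control was -0.13 (SE 0.08, interval -0.31 to 0.04). Other, dimmer probes of Top2a gave 0.03 and -0.12.

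Plk1, a kinase that drives entry into mitosis and spindle assembly, had the highest difference from Control of all members, and it followed 1 array. Its signal was 11.63, 11.15, 11.60 and 10.75 on the CM-CKO arrays, 11.52, 11.04 and 11.02 on the CM-Het arrays, 11.65, 10.71 and 9.55 on the Het arrays and 8.40, 11.50, 11.31 and 10.84 on the Control arrays. Control 1 and Het 3 stood well below all other arrays, whose ranges overlapped between genotypes. CM-CKO minus Control was 0.77 (SE 0.52, interval -0.32 to 1.86, adjusted p = 0.611), and 0.07 without Control 1.
Control 1 also had the highest heart muscle (2.09) and yolk sac endoderm (2.33) marker medians, and Het 3 had 0.52 and 0.50, although Control 3 had a heart muscle median of 1.61 with Plk1 at 11.31. Afp and Cubn, of 9 yolk sac endoderm markers, were not above background. The part of these tissues in the Plk1 signal was not tested. No other probe of Plk1 is on the array under its symbol.

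Cdc20, an activator of the ubiquitin ligase that starts chromosome separation, had 12.11, 11.90, 12.25 and 12.04 on the CM-CKO arrays, 12.02, 12.14 and 12.01 on the CM-Het arrays, 12.19, 12.13 and 11.97 on the Het arrays and 11.83, 12.09, 11.94 and 12.00 on the Control arrays. All genotypes overlapped. CM-CKO minus Control was 0.11 (SE 0.07, interval -0.04 to 0.27), and 3 other probes of Cdc20 gave -0.04, -0.18 and 0.09.

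Ccna2, a cyclin of S phase and of mitotic entry, lay close to background and was above it on 10 of 14 arrays. It had 5.25, 4.40, 5.55 and 5.17 on the CM-CKO arrays, 4.85, 5.10 and 4.88 on the CM-Het arrays, 4.63, 4.53 and 4.61 on the Het arrays and 5.05, 5.33, 4.79 and 5.20 on the Control arrays. The Het arrays were all below background and under all Control and CM-Het arrays, and CM-CKO 2 lay under them. Measured means were 5.09 in CM-CKO, 5.09 in Control and 4.59 in Het. Set against the lowest signal above background on each Het array, the CM-CKO mean was at least 1.27-fold the Het mean. The same bound held for the Control mean over the Het mean. These bounds leave out the spread between arrays, and 3 of 4 CM-CKO arrays were above background. The fitted differences were not called, with an interval of 0.07 to 0.93 for CM-CKO minus Het (limma adjusted p = 0.516). For Het minus Control the interval was -0.94 to -0.07 (limma adjusted p = 0.321). CM-CKO minus Control was 0.00 (SE 0.19).

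The 7 remaining mitosis genes were the kinases Cdk1, Aurka and Aurkb, the spindle checkpoint kinase Bub1b, the spindle motor Kif11, Birc5 (survivin) and Foxm1. Their CM-CKO minus Control differences lay between -0.08 (Aurkb) and 0.10 (Bub1b), and their highest and lowest genotype means lay between 0.08 (Birc5) and 0.20 (Bub1b) apart. Bub1b ran from 10.26 to 11.29 in CM-CKO and from 10.42 to 11.06 in Control, an SD over all arrays of 0.32, while its other probe had an SD of 0.11 and a difference of -0.13.

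The D cyclins link growth signals to the start of the cycle. Ccnd2 had 12.38, 11.98, 12.29 and 12.30 on the CM-CKO arrays, 11.82, 11.78 and 11.95 on the CM-Het arrays, 12.05, 11.87 and 11.82 on the Het arrays and 12.18, 11.76, 12.14 and 11.94 on the Control arrays. All CM-CKO arrays lay above all CM-Het arrays, and 3 of the 4 lay above every other array of the series. The CM-CKO differences were 0.23 from Control (SE 0.09, interval 0.03 to 0.43, adjusted p = 0.356), 0.33 from Het (SE 0.10, adjusted p = 0.311) and 0.39 from CM-Het (SE 0.10, adjusted p = 0.16), none of them called. Other Ccnd2 probes gave 0.33 and 0.24 for CM-CKO minus Control, and 0.18 and -0.07 for CM-CKO minus CM-Het.

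Ccnd1 had 11.93, 11.54, 11.99 and 11.85 on the CM-CKO arrays, 11.88, 11.72 and 11.89 on the CM-Het arrays, 11.90, 11.97 and 11.67 on the Het arrays and 11.57, 11.67, 12.04 and 11.63 on the Control arrays. All genotypes overlapped, with a CM-CKO minus Control difference of 0.10 (SE 0.10, interval -0.12 to 0.32). Ccnd3 had 11.49, 11.44, 11.21 and 11.38 on the CM-CKO arrays, 11.33, 11.32 and 11.15 on the CM-Het arrays, 11.34, 11.48 and 11.47 on the Het arrays and 11.52, 11.42, 11.54 and 11.45 on the Control arrays. The CM-Het arrays lay below all Control arrays (difference -0.22, SE 0.07, adjusted p = 0.163), and CM-CKO overlapped Control (difference -0.10, SE 0.07).

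**Figure D4:**
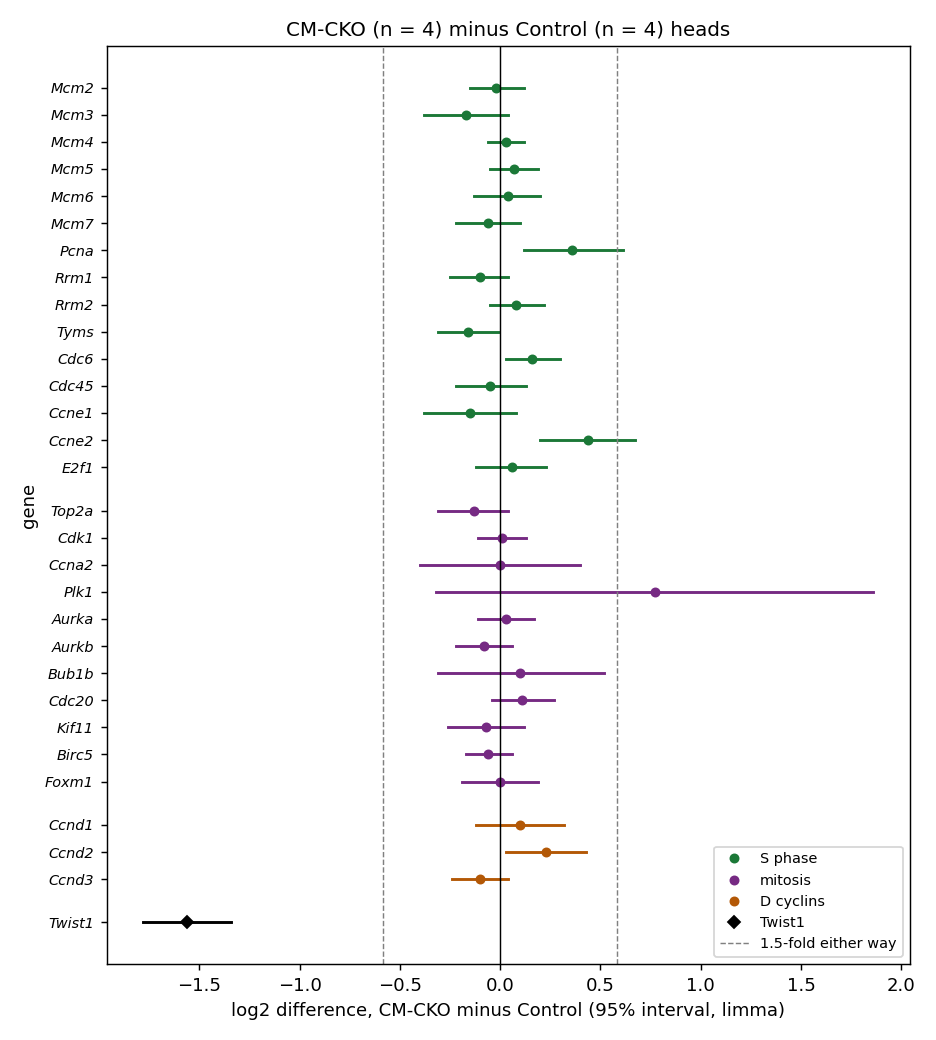
CM-CKO minus Control log2 difference (horizontal axis) with its 95% interval for the 29 members, coloured by role, and for Twist1 (vertical axis). Dashed lines mark 1.5-fold either way. The intervals of 26 members lie between the lines, those of Pcna, Ccne2 and Plk1 cross the upper one, and Twist1 lies at -1.56.

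In the other comparisons between genotypes, the arrays of 2 to 7 members were fully apart. CM-CKO lay above CM-Het in Pcna and Ccnd2 and below it in Mcm7, 3 of 29 members (10.3%) against 11.1% of all genes apart in either direction, and above Het in Cdc6 and below it in Mcm7, 2 of 29 members (6.9%) against 8.24% of all genes. CM-Het lay above Control in Mcm7, Rrm2 and Ccne2 and below it in Pcna, E2f1, Aurka and Ccnd3, 7 of 29 members (24.1%) against 14.5% of all genes. Het lay above Control in Mcm5, Mcm7, Rrm2 and Ccne2 and below it in Ccna2, 5 of 29 members (17.2%) against 11.3% of all genes. In all 4 of these comparisons 1 genotype lies wholly on beadchip 1 and the other wholly off it, so genotype and beadchip cannot be told apart. CM-Het and Het share beadchip 1, and there CM-Het lay above Het in Ccne2, Ccna2 and Kif11 and below it in Ccnd3, 4 of 29 members (13.8%) against 10.4% of all genes. Mcm7 was apart in all 4 comparisons across beadchip 1, each time higher in the genotype on beadchip 1, and CM-Het and Het overlapped in it. No member was apart in all of these comparisons.

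The spread between replicates was small in most members. The SD of replicates within genotypes had a median of 0.116 over the 29 members, from 0.0497 in Mcm4 to 0.952 in Plk1, against 0.16 over all genes tested. The members are also brighter, with a mean log2 signal of 10.31 to 10.54 on an array, against 7.54 to 7.58 over all genes. The other cell cycle lists were mixed. Their median SD was 0.107 for the other replication genes and 0.105 for the G1 kinases, E2F and MYC factors. It was 0.165 for the other mitosis genes and 0.204 for the cell cycle inhibitors. Mcm4 ran from 12.90 to 13.05 over all 14 arrays. Of the members, 28 were above background on all 14 arrays. Other detected probes exist for 16 members, 31 probes in all, and limma called 0 of them in any comparison. Their CM-CKO minus Control differences ran from -0.27 to 0.42. In the interaction some lay far from the brightest probe. They gave 0.40 for Foxm1 (limma adjusted p = 0.0849), against -0.02, and -0.37 for Birc5 (limma adjusted p = 0.0909), against 0.06. Dimmer probes gave -0.93 for Mcm4 (limma adjusted p = 0.0753), against 0.07, and -0.67 for Top2a (limma adjusted p = 0.0646), against -0.09. A further probe of Mcm6 was unsteady, from 9.54 to 11.36 over all arrays (SD 0.42), while the 2 brighter Mcm6 probes had SDs of 0.13 and 0.08.

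Further genes of the cycle gave no call in CM-CKO against Control, apart from the inhibitors, where 0.702% of all genes were called and 11.2% had an unadjusted p under 0.05. Of 43 other replication genes 38 were tested and 0 called by limma in CM-CKO against Control, with a median of 0.03 and 4 at an unadjusted p under 0.05. Gmnn, an inhibitor of origin licensing, had a difference of 0.53 (SE 0.15, adjusted p = 0.14) and the clamp loader subunit Rfc4 0.28 (SE 0.09, adjusted p = 0.209). Of 43 other mitosis genes 35 were tested and 0 called, with a median of 0.04 and 5 at an unadjusted p under 0.05, among them the cytokinesis factor Ect2 at 0.40 (SE 0.16, adjusted p = 0.339) and Ckap2 at 0.30 (SE 0.12, adjusted p = 0.344). Of 17 G1 kinases, E2F and MYC factors 13 were tested and 0 called, with a median of 0.08 and 1 at an unadjusted p under 0.05, the repressor E2f7 at 0.44 (SE 0.18, adjusted p = 0.353), beside Lin54 at 0.16 (SE 0.08, adjusted p = 0.452).

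Of 16 cell cycle inhibitors and growth arrest genes 13 were tested, with a median over the list of 0.00 in CM-CKO against Control. There 1 rose and 1 fell (15.4% called, against 0.702% of all genes). The list was chosen with earlier results of these data known, so its share called is no test of the list. Cdkn1a, which encodes the kinase inhibitor p21, had a log2 signal of 6.22, 6.57, 6.45 and 6.92 on the CM-CKO arrays, 5.93, 5.81 and 6.05 on the CM-Het arrays, 5.91, 6.26 and 5.96 on the Het arrays and 5.73, 5.67, 5.95 and 5.65 on the Control arrays. All CM-CKO arrays lay above all Control and CM-Het arrays, and Het 2 reached above the lowest of them, CM-CKO 1. The difference from Control was 0.79 (SE 0.14, interval 0.49 to 1.09, adjusted p = 0.0102). Within beadchip 2 it was 0.65 and no longer called (adjusted p = 0.194), and 2 dimmer Cdkn1a probes gave 0.57 (adjusted p = 0.129) and 0.05.

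Gadd45g, a growth arrest gene of the Gadd45 family, had 7.87, 8.15, 8.10 and 8.07 on the CM-CKO arrays, 8.46, 8.45 and 8.33 on the CM-Het arrays, 8.59, 8.64 and 8.36 on the Het arrays and 8.68, 8.46, 8.63 and 8.75 on the Control arrays. All CM-CKO arrays lay below all arrays of the other genotypes. The difference was -0.58 (SE 0.09, interval -0.78 to -0.39, adjusted p = 0.00277) in CM-CKO against Control, and its other probe gave -0.82 (adjusted p = 0.00248). The Cre average was -0.35 (adjusted p = 0.0385), a call lost without any of 11 arrays (highest adjusted p 0.178). The levels of the division genes and of these inhibitors come from the same heads, and no relation between them was tested.

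**Figure D5:**
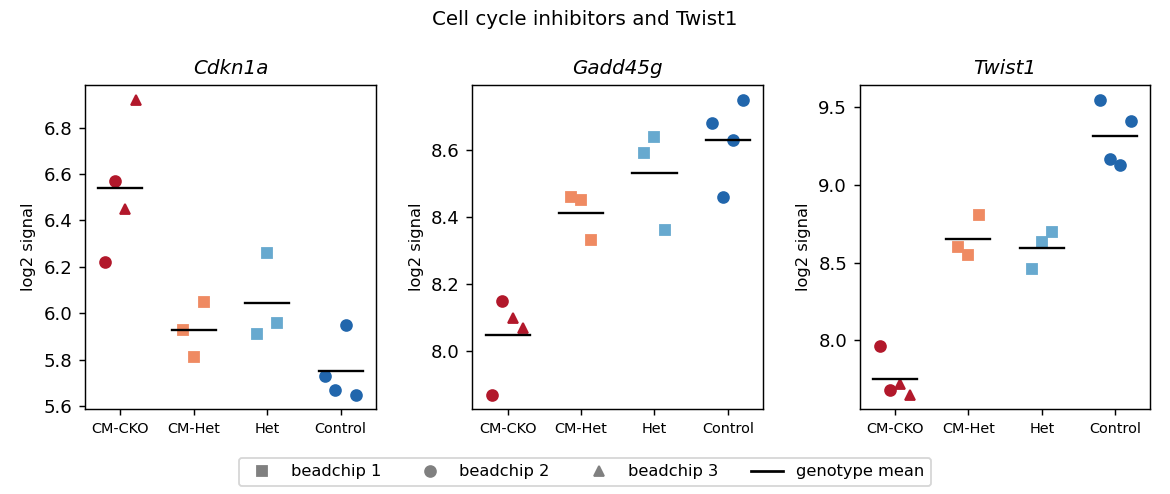
Log2 signal (vertical axes, each with its own range) of the cell cycle inhibitor genes Cdkn1a and Gadd45g and of Twist1 by genotype, with 1 point for each array, shaped by beadchip, and a bar at the genotype mean. CM-CKO arrays run from 6.22 to 6.92 in Cdkn1a and from 7.87 to 8.15 in Gadd45g, against 5.65 to 5.95 and 8.46 to 8.75 on the Control arrays.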

How the data were processed

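The deposited signal intensity is a linear, unnormalized bead summary per probe, per the file headers and its values, with a deposited column of detection p-values for every array. The deposited table of log2 values equals quantile-normalized log2 intensities to within 0.0329 and served as an alternative. For the scanner, the summary software and the genome build, the sources used here give nothing. The detection p-values do not follow their intensities (rank correlation -0.105 to -0.0946 per array), so they were put back by rank within each array, a step chosen after the values were seen.

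Intensities of 14 arrays (n = 4, 3, 3 and 4) went through neqc (limma 3.58.1, R 4.3.3), which subtracts background by normexp, with negative controls derived from the detection p, adds an offset of 16 and quantile normalizes. Probes were kept when 3 or more arrays had detection p below 0.05. Of 45281 probes 34885 have 1 symbol in the platform annotation, 18 several and 10378 none, and the brightest of the 17991 detected named probes was kept for each of 11394 genes. Of 69 member probes 60 were detected. Genotype means were fitted with lmFit and eBayes (trend), with Benjamini-Hochberg adjustment over all genes and a call under 0.05, and each 95% interval is from this fit. The script was tested on simulated data. The number of arrays limits the precision.

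The members and gene lists were chosen with earlier results of these data known. Values on every array are given for Twist1, for members called in any comparison, and for the members of each role with the largest differences or the largest spread. For other cell cycle genes, called genes and the 2 with the smallest p of each list are named. Same-numbered replicates did not pair (19 pairs, correlation of deviations -0.237 to 0.251, 4 of them over 0.1). Alternatives changed the normalization, probe choice, filter, beadchip and replicate terms and the arrays used. The 2 most alike arrays correlated at 0.99436 and none were identical.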

Additional observations from a re-analysis of the deposited data

Results flagged for a closer look

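In a group of 4 arrays, 1 array stood apart from the other 3 by more than Dixon's test allows in 3 of 64 groups tested, where chance gives about 5%. Mcm2 on CM-CKO 3 was 10.92, against 11.05 to 11.08 on the other CM-CKO arrays, and Mcm2 on Control 3 was 10.84, against 11.09 to 11.13 on the other Control arrays. Birc5 on Control 1 was 11.40, against 11.52 to 11.54 on the other Control arrays. The effect of Cre on Mcm7 differed with the second Twist1 allele by the test of the difference itself (interaction -0.59, limma adjusted p = 0.0292), in a contrast in which beadchip and genotype cannot be told apart.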

How the results depend on the processing

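Besides leaving out arrays 1 at a time, further alternatives were run, and no direction of a called value reversed. The cause of the changes below was not tested. Members called in CM-CKO minus CM-Het went to 1, Pcna, with probes detected on all 14 arrays (adjusted p = 0.0498), with the beadchip as a random block (0.024) and with the arrays of those genotypes alone (0.0373). Members called in CM-Het minus Control went to 1, Ccne2, with probes detected on all 14 arrays (0.0476) and with the random block (0.0187), whose estimated correlation was -0.0585. The random block also gave 3 members in the interaction (Ccnd2, Mcm7 and Pcna) and 3 in the F test (Ccne2, Mcm7 and Pcna). Calls over all genes in the interaction rose with the random block as well, as given below. The counts with this block are therefore not read as a result about the members. The interaction called 0 members with CM-CKO 3 and 4 as the only CM-CKO arrays (Mcm7 -0.56, adjusted p = 0.121) and without the arrays that lack Xist signal (-0.58, 0.0666). With the replicate number as a block it called 0 (Mcm7 -0.60, adjusted p = 0.0552), and the pairing of numbers was not borne out. The median of CM-CKO minus Het was 0.04 with CM-CKO 1 and 2 alone and 0.04 without the arrays that lack Xist signal. With detection p in the deposited order in the filter, 23 members were tested, and the medians were 0.02 for CM-Het minus Control and 0.04 for Het minus Control. The beadchip as a fixed block could be fitted only for CM-CKO minus Control, CM-Het minus Het and both averages, where it then sets CM-CKO against Control within beadchip 2.

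With each array left out in turn, members called ran from 0 to 1 in CM-CKO minus Control (Ccne2 without CM-CKO 3), CM-CKO minus Het (Mcm7 without CM-CKO 3), CM-CKO minus CM-Het (without Het 2 or Het 3), CM-Het minus Control (without CM-CKO 1 or CM-CKO 3), the interaction and the F test (without CM-CKO 3). The median ran from -0.02 to 0.04 in CM-CKO minus Het and from -0.05 to 0.00 in Het minus Control. Over all genes, calls in CM-CKO minus Control were 27 with the fixed block and 28 without the arrays that lack Xist signal, against 80, and calls in the interaction were 714 with the random block and 13 with CM-CKO 3 and 4 alone, against 114. Cdkn1a in CM-CKO minus Control had an adjusted p of 0.22 with the fixed block.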
